A study of Mus musculus with 8 samples.

Results

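The proteasome subunit genes of the mouse kidney were taken as every gene of the expression table whose symbol is Psma, Psmb, Psmc, Psmd, Psme, Psmf or Psmg followed by a number, which gave 48 of 55401 genes. Kidney poly(A) RNA of 8 diabetic male mice had been sequenced, with 1 library per mouse: 4 mice were given rFGF4 (mice 1, 2, 3 and 5) and 4 were given vehicle (mice 2, 3, 4 and 5). rFGF4 is a truncated, non-mitogenic recombinant form of human fibroblast growth factor 4. The sample labels call the mice a db/db model, that is, obese mice with a leptin receptor mutation, whereas the study's account of the sequencing describes kidneys of mice made diabetic with streptozotocin, a toxin for insulin-producing cells. The library titles and the columns of expression values also name the vehicle mice db, so the deposited data all go with db/db. Only the study's text names streptozotocin for the sequenced kidneys. Which account is right could not be checked further, and no non-diabetic kidney was analysed here. In the treatment scheme of the study's figure legend for both models, male mice received rFGF4 at 1.0 mg/kg or PBS into the abdomen. It was given every other day for 8 weeks from 12 weeks of age. For streptozotocin, the study's methods instead place the toxin at 8 weeks of age and treatment after 8 further weeks. Neither scheme is stated for the sequenced mice themselves. The question was whether the levels of the proteasome genes differed between the rFGF4 and the vehicle kidneys.

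The proteasome is the protease that degrades proteins tagged with ubiquitin. Its 20S core is a barrel of alpha rings, which gate the entry, around beta rings, which carry the cutting sites, and its 19S cap binds ubiquitin, unfolds the substrate with a ring of ATPases and feeds it into the core. Interferon induces alternative catalytic subunits and the activator genes Psme1 and Psme2, which form the immunoproteasome, known for making peptides for MHC class I and abundant in immune cells.

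Values are FPKM, fragments counted per length of exon and in proportion to the size of the library, so that levels may be compared between genes. The summed FPKM of a library lay between 389400 and 552600, and its estimated depth lay between 0.904 and 1.12 times that of vehicle mouse 2, while the fragments that each value rests on are not known. Mitochondrial transcripts took 18.96% to 36.0% of the FPKM in rFGF4 mice and 24.4% to 38.4% in vehicle mice. All 7 kidney marker genes were present in every library. The summed FPKM of 7 kidney markers was lowest in rFGF4 mouse 1, at 1160 against 1404 to 2245 in the other mice. Markers of lymphocytes and plasma cells summed to 23910 FPKM in vehicle mouse 5, against 27.9 to 2832 in the other mice, nearly all of it from Igkc, an immunoglobulin light chain. In these libraries of kidney tissue, fewer cells of a type and less RNA per cell cannot be told apart.

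Of the 48 proteasome genes, 46 reached 0.5 FPKM in at least 4 of the 8 libraries and were tested. The other two were Psma8, the alpha subunit of the testis proteasome, at 0 to 0.172 FPKM, and Psmb11, the catalytic subunit of the thymus proteasome, at 0 to 0.010 FPKM. The 3 testis markers were at 0 in every library. The 46 genes were compared between the groups with limma's moderated test on log2(FPKM + 1), fitted over all 15150 genes that passed the filter.

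No proteasome gene differed between rFGF4 and vehicle kidneys at an adjusted p under 0.05, and none of the 15150 genes did, the smallest adjusted p being 0.918 by limma with Benjamini-Hochberg adjustment. At the threshold the study used, which joins an unadjusted p under 0.05 to a fold change beyond 1.5 or 0.67, 0 of the 46 proteasome genes were called, against 1.52% of all genes tested. At an unadjusted p under 0.05 alone, 3 of the 46 were called, Psmd2, Psmd5 and Psme3, against 4.62% of all genes tested. All 3 were higher in rFGF4 mice, the direction in which 3.56% of all genes were called, and 0 were lower, against 1.06% of all genes. The count of 3 was 0 without vehicle mouse 3, when 3.21% of all genes had such a p, and 2 without vehicle mouse 2, when 3.29% did. It was 1 without any one of rFGF4 mice 1, 2 and 3 or vehicle mice 4 and 5, against 2.84% to 6.51% of all genes, and 6 without rFGF4 mouse 5, against 9.44%. The median log2 fold change, rFGF4 minus vehicle, was 0.04 over the 46 genes and 0.09 over all genes tested. Of the 46 genes, 30 were nominally higher in rFGF4 mice and 16 lower, that is, 65.2% higher against 67.1% of all genes.

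These directions depended on how the libraries were scaled. After median-ratio scaling, which divides each library by the median of its ratios to the geometric mean of all libraries, the median of all genes moved from 0.09 to -0.01, and 14 of the 46 proteasome genes were higher, against 47.5% of all genes, with a median of -0.09. None of Psmd2, Psmd5 and Psme3 kept an unadjusted p under 0.05 after that scaling, and the 1 proteasome gene called was Psmb6, lower in rFGF4 mice, against 4.71% of all genes called in either direction. With the mitochondrial transcripts left out of the total, the median of all genes was 0.16, and 40 of the 46 proteasome genes were higher, against 77.8% of all genes, with a median of 0.13. With that total, 7 of the 46 had an unadjusted p under 0.05, against 7.46% of all genes.

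**Figure D1:**
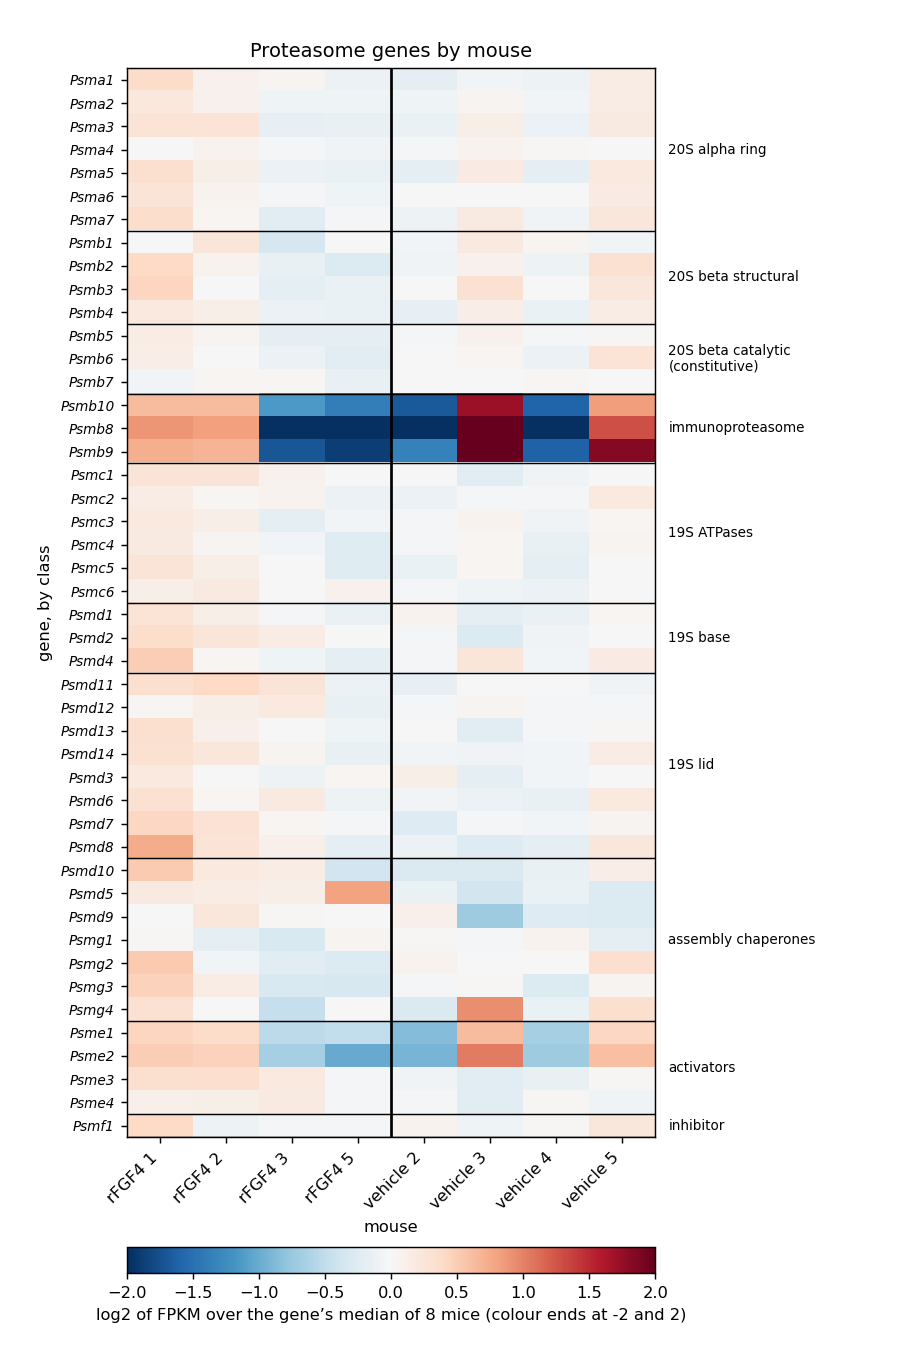
Each row is a tested proteasome gene, grouped by class, and each column a mouse, with rFGF4 mice left and vehicle mice right of the black line. Colour is the log2 of FPKM over the gene's median of 8 mice, with colours ending at -2 and 2. The rows of Psmb8, Psmb9 and Psmb10 carry the strong colours, red in rFGF4 mice 1 and 2 and vehicle mice 3 and 5, and Psme1 and Psme2 show the same columns more faintly.

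The genes of the core and the cap were expressed at similar levels in every kidney. The mean FPKM over 8 mice was highest for Psmb5 at 89.7, the ATPase gene Psmc5 at 71.95 and the core gene Psmb4 at 68.0, and lowest for the chaperone genes Psmg3 at 3.10 and Psmd5 at 3.32, genes chosen here by their level. The class median was 28.7 FPKM for the alpha ring, 38.5 for the structural beta subunits, 48.8 for the constitutive catalytic subunits, 46.7 for the 19S ATPases, 29.96 for the other base subunits, 21.6 for the lid, 8.17 for the assembly chaperones, 29.3 for the activators and 12.4 for the inducible catalytic subunits. Together the proteasome genes took 0.213% to 0.395% of the FPKM of a library.

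**Figure D2:**
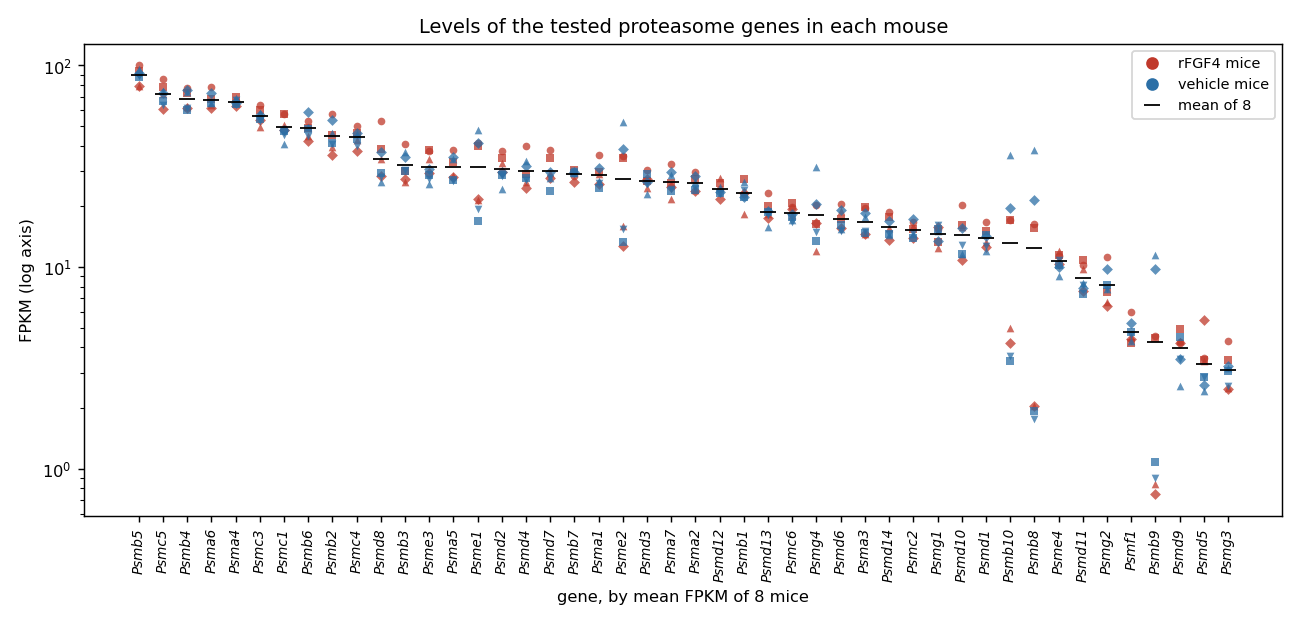
FPKM of the 46 tested proteasome genes in each of 8 mice, on a log axis and ordered by mean, with rFGF4 mice in red, vehicle mice in blue and the mean as a bar. Most genes span less than 2-fold between mice, whereas Psmb8, Psmb9 and Psmb10 fall into a higher and a lower group that each hold mice of both treatments.

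The spread between mice differed between the classes. The ratio of the highest to the lowest of the 8 mice had a median of 1.38 over the 14 genes of the constitutive 20S core and of 1.38 over the 17 genes of the 19S cap, against 2.17 over all genes tested. For the 3 inducible catalytic subunits it was 10.4 for Psmb10, 15.3 for Psmb9 and 21.4 for Psmb8.

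Sequence is shown for genes of the immunoproteasome whose levels moved together across mice, beside a constitutive subunit, Psmb5, that varied far less, because the immunoproteasome genes are known targets of interferon-activated factors. The windows are RefSeq promoters on GRCm38.p6, from 250 bases before to 50 bases after the annotated start, and 40 of the 48 genes had a window. They are Psmb8 (chr17:34197945-34198244, plus strand), Psmb9 (chr17:34187281-34187580, minus strand), Psme1 (chr14:55578244-55578543, plus strand) and Psmb5 (chr14:54617946-54618245, minus strand). Capitals mark matches, on either strand, to any of 3 motifs: the interferon-stimulated element, GAAA and GAAA with any 2 bases between them, the gamma-activated site TTCNNNGAA and the antioxidant response element TGACNNNGC.
Psmb8: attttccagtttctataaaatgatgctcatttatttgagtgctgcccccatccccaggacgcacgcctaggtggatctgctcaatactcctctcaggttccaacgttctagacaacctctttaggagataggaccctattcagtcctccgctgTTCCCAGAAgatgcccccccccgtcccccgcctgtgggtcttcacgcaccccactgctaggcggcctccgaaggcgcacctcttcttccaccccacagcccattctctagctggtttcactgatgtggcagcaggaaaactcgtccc
Psmb9: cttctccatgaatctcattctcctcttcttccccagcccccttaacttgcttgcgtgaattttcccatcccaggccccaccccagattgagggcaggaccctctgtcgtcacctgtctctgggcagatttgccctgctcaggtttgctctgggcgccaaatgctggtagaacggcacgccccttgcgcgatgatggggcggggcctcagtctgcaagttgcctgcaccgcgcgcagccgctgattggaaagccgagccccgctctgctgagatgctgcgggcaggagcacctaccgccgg
Psme1: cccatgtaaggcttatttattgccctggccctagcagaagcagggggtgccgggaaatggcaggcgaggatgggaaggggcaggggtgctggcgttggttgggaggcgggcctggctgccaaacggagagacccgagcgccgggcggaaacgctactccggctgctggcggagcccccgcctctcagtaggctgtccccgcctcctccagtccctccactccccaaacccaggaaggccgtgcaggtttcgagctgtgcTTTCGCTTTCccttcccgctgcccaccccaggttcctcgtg
Psmb5: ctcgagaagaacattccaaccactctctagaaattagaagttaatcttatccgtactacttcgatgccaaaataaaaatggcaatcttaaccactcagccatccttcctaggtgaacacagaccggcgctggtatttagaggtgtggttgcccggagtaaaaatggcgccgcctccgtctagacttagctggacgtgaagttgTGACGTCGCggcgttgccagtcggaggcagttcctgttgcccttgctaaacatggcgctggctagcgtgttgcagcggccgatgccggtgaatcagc
In Psmb8 the capitals are a gamma-activated site, whose first base lay at -97 from the start. In Psme1 they are an interferon-stimulated element read on the minus strand, beginning at 10 after the start. In Psmb5 they are an antioxidant response element beginning at -47. These offsets refer to the RefSeq starts. The GENCODE M21 annotation starts Psmb8 at 34197721, Psmb9 at 34187764 and Psme1 at 55578123, so their windows lie inside the genes as annotated there. None of the 3 motifs was found in the windows of Psmb9, Psmb10 and Psme2. Over all 32851 mouse promoter windows, the interferon-stimulated element was present in 3.44%, the gamma-activated site in 8.30% and the antioxidant response element in 12.4%. Among the 40 proteasome genes with a window, 5, 3 and 6 held them in that order. These are counts of genes, which had 43 windows, whereas the percentages are of windows. Besides Psme1, the interferon-stimulated element was in Psmb3, Psmd4, Psmd9 and Psmg4. Besides Psmb8, the gamma-activated site was in Psmd2 and Psmg1. None of these others is an immunoproteasome gene, and a part of the motifs in the levels was not tested.

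The inducible catalytic subunits did not differ by treatment beyond the spread between mice, and in both groups 2 mice had high and 2 had low levels. Psmb8 replaces the constitutive subunit Psmb5 at the chymotrypsin-like site, Psmb9 replaces Psmb6 at the caspase-like site, and Psmb10 replaces Psmb7 at the trypsin-like site. Psmb8 was at 16.3, 15.7, 2.06 and 2.06 FPKM in rFGF4 mice 1, 2, 3 and 5, and at 1.94, 37.9, 1.77 and 21.6 FPKM in vehicle mice 2, 3, 4 and 5. High levels were thus seen in rFGF4 mice 1 and 2 and vehicle mice 3 and 5, and the groups overlapped. The log2 fold change of Psmb8 was -0.35 (SE 1.04, 95% interval -2.74 to 2.04, unadjusted p = 0.744 and adjusted p = 0.970 by limma).

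Psmb9 was at 4.56, 4.43, 0.844 and 0.749 FPKM in rFGF4 mice 1, 2, 3 and 5, and at 1.09, 11.5, 0.903 and 9.81 FPKM in vehicle mice 2, 3, 4 and 5. The same 4 mice were high, and the log2 fold change was -0.61 (SE 0.75, 95% interval -2.33 to 1.10, unadjusted p = 0.434 by limma). Psmb10 was at 17.04, 17.08, 4.97 and 4.20 FPKM in rFGF4 mice 1, 2, 3 and 5, and at 3.44, 35.8, 3.63 and 19.6 FPKM in vehicle mice 2, 3, 4 and 5. Its log2 fold change was -0.16 (SE 0.78, 95% interval -1.95 to 1.64, unadjusted p = 0.848 by limma). For all 3 genes the interval held differences of more than 1 log2 unit in both directions. Leaving out 1 mouse at a time moved Psmb8 between -0.93 and 0.34, Psmb9 between -1.06 and -0.16 and Psmb10 between -0.60 and 0.42 on the log2 scale. Psmb8 and Psmb10 were nominally higher in rFGF4 mice without rFGF4 mouse 3, without rFGF4 mouse 5, without vehicle mouse 3 or without vehicle mouse 5.

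The constitutive subunits at the same sites varied far less between mice, with a ratio of the highest to the lowest mouse of 1.26 for Psmb5, 1.40 for Psmb6 and 1.14 for Psmb7. Psmb5 was at 100.1, 94.2, 79.3 and 79.3 FPKM in rFGF4 mice 1, 2, 3 and 5, and at 88.0, 96.0, 89.0 and 91.5 FPKM in vehicle mice 2, 3, 4 and 5, a log2 fold change of -0.05 (SE 0.12). Psmb6 was at 53.3, 49.0, 44.8 and 42.2 FPKM in the rFGF4 mice and at 48.2, 49.7, 44.6 and 58.9 FPKM in the vehicle mice, a log2 fold change of -0.09 (SE 0.13). Psmb7 was at 28.2, 30.2, 29.9 and 26.4 FPKM in the rFGF4 mice and at 29.2, 29.2, 29.8 and 29.6 FPKM in the vehicle mice, a log2 fold change of -0.04 (SE 0.09). The 4 mice named above were also the highest for Psmb5 and Psmb6, by narrow margins, and not for Psmb7. The groups overlapped for all 3 genes, and the 95% interval of Psmb7 ran from -0.25 to 0.18. The fold changes were below 0 with the deposited scaling and above 0 with the mitochondrial transcripts left out of the total, where the 3 values were 0.05 for Psmb5, 0.01 for Psmb6 and 0.06 for Psmb7. After median-ratio scaling Psmb6 was lower in rFGF4 mice at an unadjusted p of 0.0436 by limma (log2 fold change -0.21), a call that the deposited scaling did not give. Of the stretches of 75 bases in the transcripts of Psmb5, 36.8% also occur in the transcripts of other genes, mainly the pseudogene Gm3375, so its level is uncertain to that extent.

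Within each mouse, the inducible share of each catalytic pair does not depend on the scaling of the library. Psmb8 made up 14.04%, 14.25%, 2.53% and 2.52% of the summed FPKM of Psmb8 and Psmb5 in rFGF4 mice 1, 2, 3 and 5, and 2.15%, 28.3%, 1.95% and 19.1% in vehicle mice 2, 3, 4 and 5. Psmb9 made up 7.88%, 8.30%, 1.85% and 1.74% of Psmb9 and Psmb6 in the rFGF4 mice, and 2.20%, 18.7%, 1.98% and 14.3% in the vehicle mice. Psmb10 made up 37.7%, 36.1%, 14.2% and 13.7% of Psmb10 and Psmb7 in the rFGF4 mice, and 10.54%, 55.1%, 10.8% and 39.8% in the vehicle mice. In each pair the groups overlapped, and the vehicle mice held both the highest and, except for Psmb9, the lowest share.

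**Figure D3:**
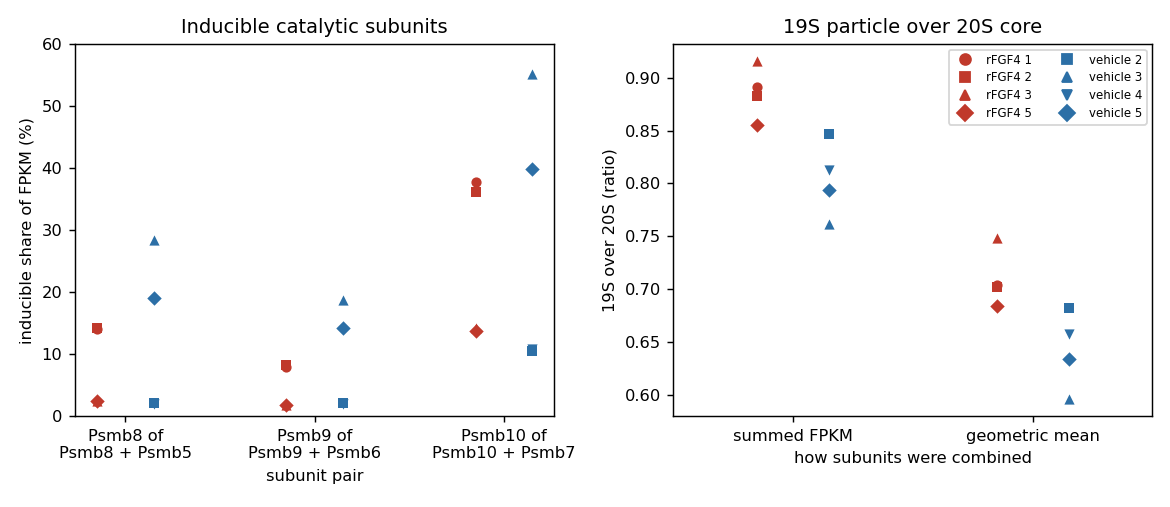
Left, the inducible share, in percent of FPKM, of each pair of catalytic subunits, with 1 point per mouse. The 4 mice with shares of Psmb8 from 14.04% to 28.3% are rFGF4 mice 1 and 2 and vehicle mice 3 and 5. Right, the ratio of 19S cap to 20S core genes in each mouse, from summed FPKM and from geometric means, where the 4 rFGF4 mice lie above the 4 vehicle mice.

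The interferon-inducible activator genes Psme1 and Psme2 were high and low in the same mice as the inducible catalytic subunits, with overlapping treatment groups. They encode the subunits of a ring that caps the core and opens its gate without ubiquitin or ATP. Psme1 was at 41.3, 39.7, 21.5 and 21.9 FPKM in rFGF4 mice 1, 2, 3 and 5, and at 16.9, 47.9, 19.5 and 41.2 FPKM in vehicle mice 2, 3, 4 and 5. Psme2 was at 35.7, 34.8, 16.0 and 12.7 FPKM in the rFGF4 mice and at 13.4, 52.2, 15.5 and 38.5 FPKM in the vehicle mice. The log2 fold change was 0.06 (SE 0.39) for Psme1 and -0.17 (SE 0.51) for Psme2, with unadjusted p values of 0.887 and 0.742 by limma. The direction for Psme1 turned to -0.07 after median-ratio scaling. Of the stretches of 75 bases of Psme2, 22.9% also occur in its copy Psme2b, which was at 11.7 to 28.2 FPKM in rFGF4 mice and 11.0 to 33.6 FPKM in vehicle mice.

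The 4 mice highest for Psmb8, that is, rFGF4 mice 1 and 2 and vehicle mice 3 and 5, were also the 4 highest for Psmb9, Psmb10, Psme1 and Psme2. These mice were defined by Psmb8. Apart from these 5 genes, 41 proteasome genes were tested, of which 13, or 31.7%, had the same 4 mice highest, among them 8 of 14 genes of the constitutive core and 4 of 17 genes of the 19S cap, against 17.4% of all genes tested. Among 18 genes of MHC class I peptide loading and the interferon response, 17 had these 4 mice highest. Tap1, a subunit of the peptide transporter that supplies class I molecules, was at 6.42, 7.45, 0.797 and 1.012 FPKM in rFGF4 mice 1, 2, 3 and 5, and at 1.05, 12.53, 1.33 and 5.56 FPKM in vehicle mice 2, 3, 4 and 5. Irf1, a transcription factor induced by interferon, was at 15.6, 16.7, 3.57 and 3.23 FPKM in the rFGF4 mice and at 3.84, 39.4, 3.48 and 20.9 FPKM in the vehicle mice. For both genes the groups overlapped, with log2 fold changes of -0.23 for Tap1 (SE 0.75) and -0.44 for Irf1 (SE 0.83). Of the 18 genes, 7 were nominally higher and 11 lower in rFGF4 mice, while 67.1% of all genes tested were higher. At an unadjusted p under 0.05, 0 of the 18 were called, against 4.62% of all genes tested. Their median log2 fold change was -0.09, against 0.09 for all genes tested.

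Macrophage markers were high in the same mice. All 6 macrophage markers had these 4 mice highest, and their summed FPKM was 1198, 428, 118 and 80.3 in rFGF4 mice 1, 2, 3 and 5 and 43.3, 313, 55.3 and 1728 in vehicle mice 2, 3, 4 and 5. Of the 10 markers of lymphocytes and plasma cells, 4 had these 4 mice highest, and their sum was 2832, 714, 80.4 and 652 FPKM in the rFGF4 mice and 63.1, 1460, 27.9 and 23910 FPKM in the vehicle mice. No marker of either list was at 0 in every library, and Ms4a1, a B cell marker, was at 0 in 3 libraries. None of the 7 kidney markers had these 4 mice highest. The order of the mice was not the same as for Psmb8, which was highest in vehicle mouse 3, whereas the macrophage sum was highest in vehicle mouse 5. The part of these cells in the levels of the immunoproteasome genes was not tested.

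**Figure D4:**
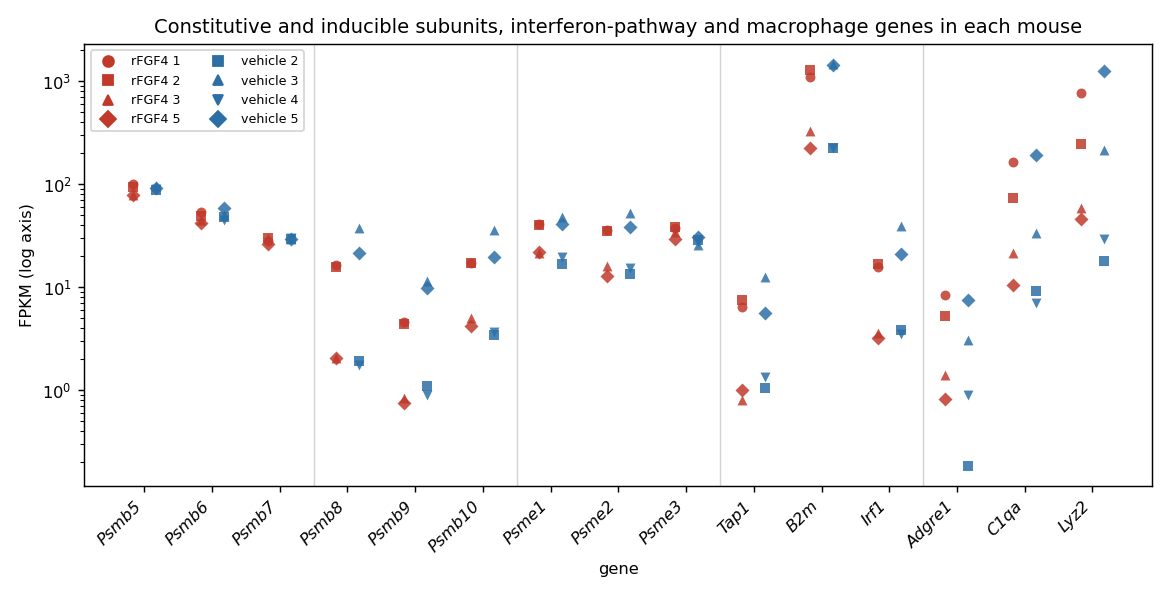
FPKM on a log axis, with 1 symbol per mouse, for the constitutive and inducible catalytic subunits, the activators Psme1 to Psme3, interferon-pathway genes and macrophage markers. rFGF4 mice 1 and 2 and vehicle mice 3 and 5 lie above the other four mice for Psmb8, Psmb9, Psmb10, Psme1, Psme2, Tap1, B2m, Irf1 and the macrophage markers, and not for Psmb7 or Psme3.

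The neighbourhood of these genes was looked up in GENCODE M21 on GRCm38. Psmb8, Psmb9, Tap1 and Tap2 lie within 34334 bases of chromosome 17. Psmb9 and Tap1 start 211 bases apart on opposite strands and their exons overlap, so without knowledge of the strand their reads cannot be fully told apart. Psmb8 overlaps exons of Gm20496, with which it shares 9.97% of its stretches of 75 bases. Psme1 and Psme2 lie on opposite strands of chromosome 14 with starts 12990 bases apart, and Psmb10 lies apart from both groups on chromosome 8.

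The other activators showed no high and low mice of this kind. Psme3 encodes the gamma subunit of a nuclear activator ring, which is not known as an interferon-induced gene. Psme3 was at 37.8, 38.2, 34.3 and 29.5 FPKM in rFGF4 mice 1, 2, 3 and 5, and at 28.6, 25.7, 27.3 and 30.8 FPKM in vehicle mice 2, 3, 4 and 5. The 3 highest mice were rFGF4 mice, and rFGF4 mouse 5 lay below vehicle mouse 5. The log2 fold change was 0.30 (SE 0.12, 95% interval 0.02 to 0.58), with an unadjusted p of 0.0366 and an adjusted p of 0.918 by limma and a two-sided exact permutation p of 0.0571. The unadjusted p stayed under 0.05 without rFGF4 mouse 5 (0.0122) and without vehicle mouse 5 (0.0366), and lay between 0.0646 and 0.101 when any of the other 6 mice was left out. After median-ratio scaling it was 0.129, with a log2 fold change of 0.17. Psme4, which encodes a large single-chain activator, was at 11.4, 11.5, 12.01 and 10.4 FPKM in the rFGF4 mice and at 10.3, 9.04, 10.8 and 10.0 FPKM in the vehicle mice, a log2 fold change of 0.16 (SE 0.10, unadjusted p = 0.161 by limma, two-sided exact permutation p = 0.0571) that was 0.04 after median-ratio scaling. Psmf1, which encodes an inhibitor of the core, had a mean of 4.77 ± 0.827 FPKM (SD, n = 4) in rFGF4 mice and 4.74 ± 0.422 FPKM (SD, n = 4) in vehicle mice, a log2 fold change of 0.00 (SE 0.13), which turned to -0.11 after median-ratio scaling.

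**Figure D5:**
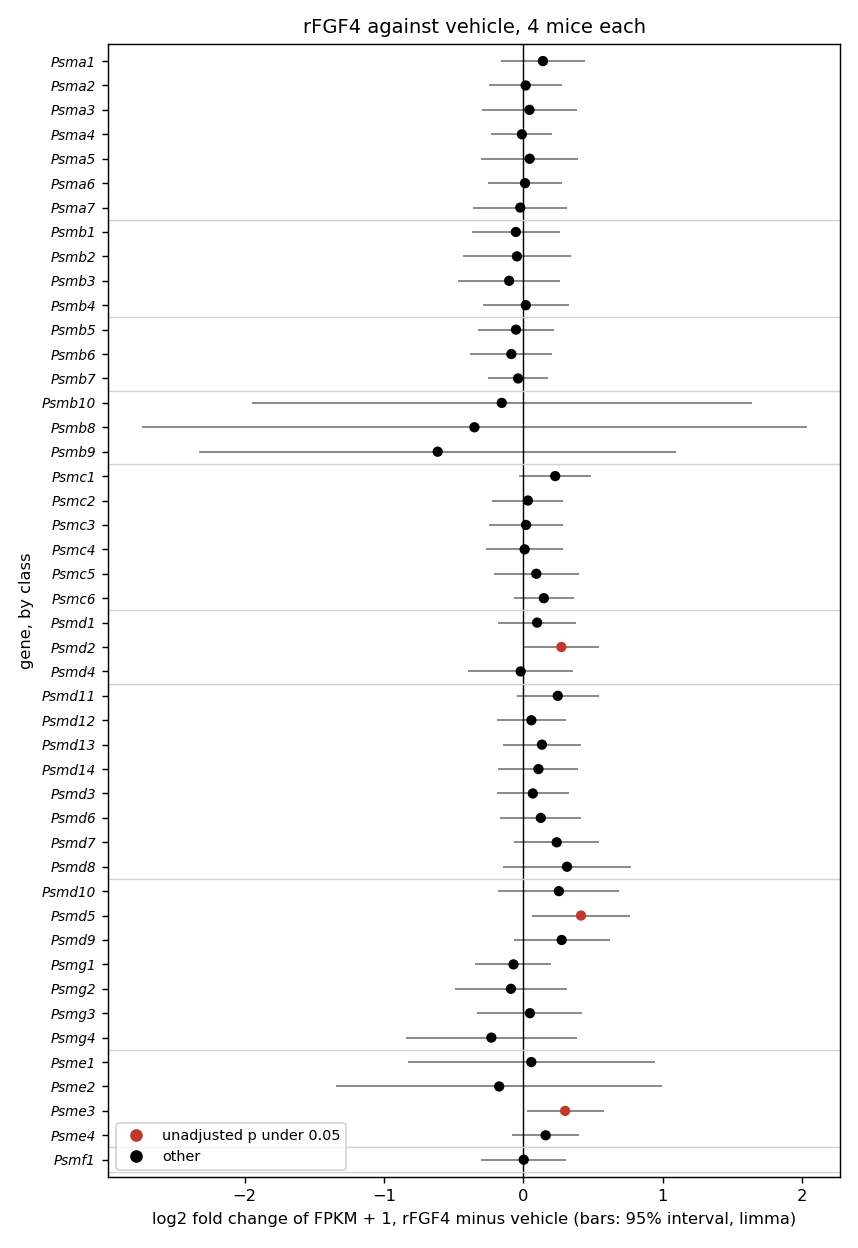
Log2 fold change of FPKM + 1, rFGF4 minus vehicle, for the 46 tested proteasome genes by class, with 95% intervals from limma. The 3 red points, Psmd2, Psmd5 and Psme3, have an unadjusted p under 0.05, and the widest intervals are those of Psmb8, Psmb10 and Psmb9.

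The genes of the 19S cap and of the 20S core differed little between the groups. Of 17 cap genes, 16 were higher and 1 lower with the deposited scaling, with a median log2 fold change of 0.11, whereas 8 of 17 were higher after median-ratio scaling (median -0.01) and 17 of 17 without the mitochondrial transcripts (median 0.20). Of 14 genes of the constitutive core, 6 were higher with the deposited scaling (median -0.02), 1 after median-ratio scaling (median -0.14) and 13 without the mitochondrial transcripts (median 0.08). Of all genes tested, 67.1%, 47.5% and 77.8% were higher under these scalings in the same order. By class, 6 of 6 ATPases, 2 of 3 other base subunits and 8 of 8 lid subunits were higher with the deposited scaling. In the core, 5 of 7 alpha subunits, 1 of 4 structural beta subunits and 0 of 3 constitutive catalytic subunits were higher. Of all these genes only Psmd2 had an unadjusted p under 0.05.

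Psmd2 encodes the scaffold of the cap's base, to which ubiquitin receptors and shuttle factors bind. Psmd2 was at 37.7, 34.9, 32.9 and 29.6 FPKM in rFGF4 mice 1, 2, 3 and 5, and at 28.7, 24.4, 28.3 and 29.6 FPKM in vehicle mice 2, 3, 4 and 5. The lowest rFGF4 mouse lay at the level of the highest vehicle mouse, and the log2 fold change was 0.27 (SE 0.12, 95% interval 0.00 to 0.54), with an unadjusted p of 0.0470 and an adjusted p of 0.918 by limma and a two-sided exact permutation p of 0.0571. The unadjusted p stayed under 0.05 only without rFGF4 mouse 5 (0.0255), and was 0.0553 to 0.12 when any of the other 7 mice was left out. After median-ratio scaling the log2 fold change of Psmd2 was 0.15 with an unadjusted p of 0.193, and without a trend in limma's prior variance the p was 0.0534. Of the stretches of 75 bases of Psmd2, 9.77% also occur in the pseudogene Gm5422. Psmc1, an ATPase of the ring that opens the gate of the core, was at 57.3, 57.3, 50.8 and 47.8 FPKM in the rFGF4 mice and at 47.6, 40.6, 45.4 and 47.7 FPKM in the vehicle mice. Every rFGF4 mouse lay above every vehicle mouse for Psmc1, though the nearest were at 47.8 and 47.7 FPKM, and the log2 fold change was 0.23 (SE 0.11, unadjusted p = 0.0754 by limma, two-sided exact permutation p = 0.0286, the smallest that 4 against 4 mice can give). After median-ratio scaling the log2 fold change of Psmc1 was 0.10. Psmc1 and Psmd5 were the 2 proteasome genes whose groups did not overlap, both higher in rFGF4 mice, against 2.66% of all genes tested in that direction and 3.33% in either.

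The remaining extremes of the classes had intervals that included 0. In the lid, Psmd8, a subunit at the junction of lid and base, had the highest change, at 0.31 (SE 0.20), with 53.1 FPKM in rFGF4 mouse 1 and 26.5 to 38.5 FPKM in the other mice. It was 0.15 without rFGF4 mouse 1 and 0.19 after median-ratio scaling. Psmd12, another lid subunit, had the lowest, at 0.06 (SE 0.11), which turned to -0.07 after median-ratio scaling. Psmd4, a ubiquitin receptor of the cap, was at -0.02 (SE 0.16), and Psmc4, an ATPase, at 0.01 (SE 0.12). In the core, the alpha ring ran from Psma7 at -0.02 (SE 0.15) to Psma1 at 0.14 (SE 0.13), and the structural beta subunits from Psmb3 at -0.10 (SE 0.16) to Psmb4 at 0.02 (SE 0.13). Psma1 was at 0.05 without rFGF4 mouse 1 and at 0.01 after median-ratio scaling, and Psmb3 at -0.23 in both cases. The 95% interval of Psmb4 ran from -0.29 to 0.32.

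The ratio of cap to core within a mouse does not depend on the scaling of the library, and it was looked at after the values of the genes had been seen. Summed over the 17 cap genes and divided by the sum of the 14 core genes, it was 0.891, 0.882, 0.916 and 0.855 in rFGF4 mice 1, 2, 3 and 5, and 0.847, 0.762, 0.813 and 0.794 in vehicle mice 2, 3, 4 and 5. The 4 rFGF4 mice thus lay above the 4 vehicle mice, with rFGF4 mouse 5 and vehicle mouse 2 close together. From geometric means it was 0.704, 0.702, 0.748 and 0.684 in the rFGF4 mice and 0.683, 0.596, 0.658 and 0.634 in the vehicle mice, again with no overlap and with those 2 mice nearest. No test was made of this ratio, since it is a score over genes chosen with results known.

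The assembly chaperones, which help to build the core and the cap and leave before the particle is complete, were at lower levels. Of the 7, 4 were nominally higher in rFGF4 mice with the deposited scaling, against 67.1% of all genes, with a median of 0.05, while 3 were higher after median-ratio scaling and 6 without the mitochondrial transcripts. Psmd5 was the 1 chaperone gene with an unadjusted p under 0.05. Psmd5 binds an ATPase of the base during assembly and is known to hold back the joining of cap and core. Psmd5 was at 3.53, 3.46, 3.41 and 5.44 FPKM in rFGF4 mice 1, 2, 3 and 5, and at 2.85, 2.43, 2.84 and 2.60 FPKM in vehicle mice 2, 3, 4 and 5. All 4 rFGF4 mice lay above all 4 vehicle mice, and rFGF4 mouse 5 stood above the other three. The log2 fold change was 0.41 (SE 0.15, 95% interval 0.06 to 0.76), the highest of the 46 genes, with an unadjusted p of 0.0260 and an adjusted p of 0.918 by limma and a two-sided exact permutation p of 0.0286. The unadjusted p was 0.0636 without vehicle mouse 3, 0.0508 without vehicle mouse 5 and 0.127 after median-ratio scaling. Psmg4, a chaperone of the alpha ring, had the lowest change of its class, at -0.23 (SE 0.27), with 31.3 FPKM in vehicle mouse 3 and 12.1 to 20.6 FPKM in the other mice, and without vehicle mouse 3 its log2 fold change was 0.00.

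Of 30 genes that act with the proteasome, as ubiquitin carriers, shuttles, assembly factors or regulators, 29 were found and tested, and none differed at an adjusted p under 0.05. Of these 29, 24 were higher and 5 lower with the deposited scaling, with a median log2 fold change of 0.15, while 18 of 29 were higher after median-ratio scaling (median 0.04). Of all genes tested, 67.1% and 47.5% were higher in that order. At an unadjusted p under 0.05, 5 were called, all higher, against 3.56% of all genes in that direction, and none had an adjusted p under 0.918 by limma. Nfe2l2, a transcription factor of the antioxidant response, was at 46.8, 46.6, 38.0 and 27.1 FPKM in rFGF4 mice 1, 2, 3 and 5, and at 22, 29.0, 26.9 and 31.9 FPKM in vehicle mice 2, 3, 4 and 5, with overlapping groups. Its log2 fold change was 0.49 (SE 0.20, unadjusted p = 0.0373 by limma, two-sided exact permutation p = 0.0857). Nploc4, an adaptor of the segregase that hands ubiquitinated proteins to the proteasome, was at 15.3, 16.7, 15.3 and 13.2 FPKM in the rFGF4 mice and at 11.3, 10.4, 12.1 and 11.7 FPKM in the vehicle mice, a log2 fold change of 0.38 (SE 0.11, unadjusted p = 0.00781 by limma). The rFGF4 mice lay above the vehicle mice for Nploc4, and likewise for Ube3c, a ubiquitin ligase bound to the proteasome (log2 fold change 0.34, SE 0.13), and Ddi2, the protease that activates the product of Nfe2l1 (log2 fold change 0.27, SE 0.12). The unadjusted p was 0.0271 for Ube3c and 0.05 for Ddi2 by limma, and the two-sided exact permutation p was 0.0286 for each of these 3 genes. The p of Ddi2 lay just under 0.05 before rounding. Of the 29 partner genes, 4 had every rFGF4 mouse above every vehicle mouse, against 2.66% of all genes tested in that direction and 3.33% in either. With 1 mouse left out at a time, Nploc4 kept an unadjusted p under 0.05 in every case, whereas Ube3c lost it in 4, Nfe2l2 in 6 and Ddi2 in 7 of the 8 cases. After median-ratio scaling Nfe2l2 kept it, and Nploc4, Ube3c and Ddi2 did not. That scaling left 2 of the 29 partner genes with such a p, against 4.71% of all genes tested, the other being Ubqln4, a ubiquitin shuttle named here after its values were seen, with a log2 fold change of 0.21. Without the mitochondrial transcripts the count was 9 of 29, against 7.46% of all genes. Nfe2l1 itself, which encodes the factor known to raise proteasome genes when the proteasome is inhibited, had a mean of 7.11 ± 0.519 FPKM (SD, n = 4) in rFGF4 mice and 6.72 ± 1.26 FPKM (SD, n = 4) in vehicle mice, a log2 fold change of 0.08 (SE 0.15).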

How the data were processed

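Kidney poly(A) RNA of 8 mice was sequenced in paired-end mode, and the mice were grouped by the treatment in the labels. The labels and the study's reporting summary name a NovaSeq instrument, and the study's methods name a HiSeq. The authors used StringTie to assemble transcripts from the mapped reads, joined the assemblies of all libraries with gffcompare, and deposited the level of each gene as FPKM. The submitters' processing notes name HISAT2 2.0, StringTie 1.3.0, Bowtie 0.12.2 and the mm8 build. How transcripts were combined per gene, and whether strand was used, is not given in the sources used here. The deposited table also holds the authors' fold changes, log2 fold changes, p-values and q-values from edgeR, which were not used. It holds no counts, so the study's edgeR test could not be rerun, and a value of 0.0001 was read as 0.

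Genes with at least 0.5 FPKM in 4 or more libraries, 15150 in all, were compared as log2(FPKM + 1). The test was limma 3.58.1 (R 4.3.3), whose prior variance followed a trend with expression, and p values were adjusted by Benjamini-Hochberg over all genes tested. A fold change on this scale understates the change of low genes. For single genes a two-sided exact permutation test over all 70 splits of the 8 mice was added, which can give no p below 0.0286. The procedure was tested on simulated data. Median-ratio scaling used the genes above 0.5 FPKM in every library. Positions and shared stretches of 75 bases came from GENCODE M21 on GRCm38, which holds 55141 of the 55401 identifiers.

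The genes, the lists and the alternatives were chosen with earlier results of these data known. Described in full are the inducible catalytic subunits, the subunits they replace, the activators, each gene with an unadjusted p under 0.05, the highest and lowest change of each class, and Nfe2l1, Tap1 and Irf1, except for genes that are not reported here. One gene of the list of proteasome partners, Paaf1, was not matched to the table. The alternatives were another pseudocount, other filters, 2 other scalings, no trend, array weights, a replicate block, leaving out 1 mouse at a time, and a fold change of 2. Plots were made in Python 3.11.15 (matplotlib 3.10.9).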

Additional observations from a re-analysis of the deposited data

Results flagged for a closer look

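In groups of 4 mice, 60 were examined for a single mouse far from the other three, and chance alone gives about 3. Psmd5 was highest in rFGF4 mouse 5, at 5.44 FPKM against 3.41 to 3.53 FPKM in the other rFGF4 mice, a gap of 0.927 of the group's range on the log2(FPKM + 1) scale, above Dixon's critical value for 4 samples. Nfe2l1 was lowest in vehicle mouse 3, at 4.87 FPKM against 7.14 to 7.67 FPKM in the other vehicle mice, a gap of 0.838 of the range on the same scale. On the FPKM scale itself, a comparison chosen after the data were seen, the gaps were 0.939 for Psmd5 and 0.81 for Nfe2l1, and the second is then below the critical value. Without these mice the log2 fold change was 0.28 for Psmd5 and -0.04 for Nfe2l1.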

How the results depend on the processing

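In none of the alternatives run did a proteasome gene pass the study's threshold, and a fold change of 2 also gave 0. The count of proteasome genes with an unadjusted p under 0.05, 3 as reported, was 1 after median-ratio scaling (Psmb6, which is not one of the 3), 7 without the mitochondrial transcripts, 5 with array weights and 0 to 6 with 1 mouse left out. In that order, 4.71%, 7.46%, 12% and 2.84% to 9.44% of all genes tested were called. The count higher in rFGF4 mice, 30 of 46, was 14 after median-ratio scaling and 19 to 36 with 1 mouse left out. The median log2 fold change of the proteasome genes, 0.0381, was -0.0851 after that scaling and -0.0346 to 0.0949 with 1 mouse left out, being below 0 without rFGF4 mouse 1 (-0.0346) or vehicle mouse 4 (-0.00409). The median of all genes turned to -0.0111 with that scaling. The cause of these changes was not tested.

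The mouse numbers 2, 3 and 5 occur in both groups, but the deviations of same-numbered mice correlated at -0.229, -0.155 and -0.393, so the numbers were not taken as pairs. In a fit with a replicate block over these 6 mice, 0 proteasome genes had an unadjusted p under 0.05 (2.61% of all genes), 18 were higher in rFGF4 mice (46.7% of all genes) and the median log2 fold change was -0.0567 (all genes -0.0187), while the same 6 mice without the block gave 1 (4.17% of all genes) and 18. The fit over 6 mice leaves out rFGF4 mouse 1 and vehicle mouse 4. In that fit Psmb4 turned to -0.0845, Psmc4 to -0.0960, Psme1 to -0.273 and Psmf1 to -0.105. Each mouse number in it occurs in both groups, so the block itself leaves the fold changes as they are.

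Other log2 fold changes that changed sign, with 0 within their intervals as reported, were as follows. Median-ratio scaling gave -0.111 for Psmb4, -0.118 for Psmc4, -0.0673 for Psmd12, -0.0688 for Psme1, -0.106 for Psmf1 and -0.0301 for Nfe2l1. Leaving out the mitochondrial transcripts gave 0.0740 for Psma7, 0.0460 for Psmb5, 0.0119 for Psmb6, 0.0588 for Psmb7 and 0.0777 for Psmd4. Array weights, which weight each library by its fit, gave 0.433 for Psmb10, 0.402 for Psmb8, 0.182 for Psme2, -0.0572 for Psmf1, 0.178 for Irf1 and 0.234 for Tap1. With 1 mouse left out, the ranges that crossed 0 were -0.125 to 0.0590 for Psma7, -0.599 to 0.419 for Psmb10, -0.0421 to 0.0703 for Psmb4, -0.928 to 0.343 for Psmb8, -0.0534 to 0.0804 for Psmc4, -0.159 to 0.0640 for Psmd4, -0.184 to 0.3 for Psme1, -0.469 to 0.161 for Psme2, -0.0937 to 0.0483 for Psmf1, -0.386 to 0.000152 for Psmg4, -0.905 to 0.153 for Irf1, -0.0431 to 0.144 for Nfe2l1 and -0.608 to 0.3 for Tap1. How many fragments each value rests on is not known, so no counting error is given, and the exact test on 4 against 4 mice cannot give a p below 0.0286.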

Other observations

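Ubb, a polyubiquitin gene that encodes the tag the proteasome reads, and Fbxo7 were chosen after their values had been seen. Ubb was at 525 to 687 FPKM in rFGF4 mice and 491 to 671 FPKM in vehicle mice, far above any proteasome subunit. The groups overlapped, with a log2 fold change of 0.09 (SE 0.18). Fbxo7, which encodes a partner of a proteasome inhibitor, was one of 5 partner genes with a lower mean in rFGF4 mice, at 8.51 ± 0.980 FPKM (SD, n = 4) against 10.3 ± 0.757 FPKM (SD, n = 4) in vehicle mice, a log2 fold change of -0.25 (SE 0.12, unadjusted p = 0.0635 and adjusted p = 0.918 by limma).

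Apoa1, one of 3 liver markers used as a check of the tissue, was at 6.42, 8.88, 9.19 and 3.75 FPKM in rFGF4 mice 1, 2, 3 and 5 and at 3.47, 1.79, 1.45 and 3.42 FPKM in vehicle mice 2, 3, 4 and 5, a log2 fold change of 1.18 (SE 0.30, unadjusted p = 0.00445 and adjusted p = 0.918 by limma). Summed FPKM of the 3 markers overlapped between the groups, at 39.7 to 113 in rFGF4 mice and 18.6 to 69.6 in vehicle mice.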
